A study of Mus musculus with 4 samples.

Results

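The p53 pathway and its target genes were followed in mouse embryonic stem cells of the E14 line, which derives from Ola129 mice, after silencing of Ogt. The group is a list of 32 genes: Trp53 itself, regulators that feed back on the p53 protein, and known p53 targets in arrest, apoptosis and repair. Of these, 31 were found by symbol among the 20723 gene symbols of the deposited table, and Rrm2b was not matched. For a gene with several probe sets, the one with the highest mean over the 4 arrays was used, which concerned Ppm1d alone. All 31 accessions given for the members belong to the same symbols in RefSeq.

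p53 is a transcription factor whose activity is set mainly through the stability and modification of its protein. Damage and stress free it from the ubiquitin ligase Mdm2, and it then activates genes that stop the cell cycle, repair DNA or start apoptosis, along with genes such as Mdm2 that switch it off again. In mouse embryonic stem cells p53 is known to be abundant, and damage drives it to lower pluripotency genes as well as to raise its usual targets. The arrays measure transcripts, so the amount and activity of the p53 protein were not measured here.

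There were 2 arrays of cells transfected with esiRNA against Ogt (esiOgt), the gene of the enzyme that adds O-GlcNAc to proteins. The controls were 2 arrays of cells given esiRNA against GFP (esiGFP). Total RNA was collected 48 h after the transient transfection in both groups, and all cells were kept on gelatin in 15% serum with leukemia inhibitory factor. An esiRNA is a pool of short interfering RNAs cut from a long transcript. Separate cultures are not named for the replicates of this line, so errors and p-values cover the differences seen among these 4 arrays, and these can be technical.

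The values are log2 levels, on which a difference of 1 is 2-fold. The array medians lay between 6.40 and 6.46. Ogt read 9.73 and 10.09 in esiOgt cells and 11.51 and 11.38 in esiGFP cells, 2.91-fold lower after silencing. Its log2 change was -1.54 (SE 0.17, limma adjusted p = 0.674 over all probe sets), and the exact two-sided permutation p was 0.333, the smallest that 2 arrays against 2 allow. The 10 stem cell markers, among them Pou5f1, Nanog and Sox2, summed to a log2 level of 15.50 and 15.56 in esiOgt cells and of 15.49 and 15.48 in esiGFP cells. The 10 fibroblast markers summed to 9.36 and 9.43 in esiOgt cells and to 9.42 and 9.51 in esiGFP cells. The 4 neural markers summed to 9.34 and 9.10 in esiOgt cells and to 9.65 and 9.47 in esiGFP cells, lower on both esiOgt arrays. Among them Pax6 changed most, with a log2 change of -0.97 (SE 0.44). Sox1 had -0.22 (SE 0.13), also with groups apart, and Tubb3 and Nes overlapped. The 4 endoderm markers summed to 9.03 and 9.19 in esiOgt cells and to 9.08 and 9.15 in esiGFP cells, and the 4 mesoderm markers to 9.05 and 9.03 in esiOgt cells and to 9.00 and 8.99 in esiGFP cells. The stem cell and mesoderm sums were slightly higher on both esiOgt arrays, and the fibroblast and endoderm sums overlapped. What part these marker differences have in the results below was not tested. In such bulk samples fewer cells of a type and less RNA per cell cannot be told apart.

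Many members carry a p53 half-site close to their start. The half-site is a short degenerate pattern of purines, a core that begins with C and ends with G, and pyrimidines, and its code reads the same on both strands. RefSeq windows from 250 bases before to 50 bases after a gene's start (GRCm38.p6) were matched for 24 of the 32 genes, in 33 windows. A half-site was found in 14 of the 33 windows (42.4%), from 13 genes, against 8.36% of all 32851 windows. The overlapping windows of Aen share 1 match. The stretches below show Cdkn1a, the best known target, and 7 other members. These are the ones whose esiOgt and esiGFP arrays did not overlap and which had a half-site more than 10 bases before the start. Mdm2, Bax and Sesn1 were higher and Ccng1, Gadd45a, Ckap2 and Aen lower in esiOgt cells. Groups were apart in 41.9% of all members and 39.5% of gene symbols, so this choice is for display alone. Ei24 also had its groups apart, and its half-site, which ends at the start, is not shown. Capitals mark the half-sites, and each stretch runs 5′ to 3′ on the strand of the gene.
Cdkn1a, chr17:29090876-29090967, plus strand: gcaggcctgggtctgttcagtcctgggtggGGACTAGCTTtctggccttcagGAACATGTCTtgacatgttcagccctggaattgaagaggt
Mdm2, chr10:117710905-117710974, minus strand: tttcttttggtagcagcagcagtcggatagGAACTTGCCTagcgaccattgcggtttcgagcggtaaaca
Ccng1, chr11:40755432-40755501, minus strand: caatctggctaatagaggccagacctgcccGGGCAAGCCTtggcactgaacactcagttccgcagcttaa
Gadd45a, chr6:67037408-67037477, minus strand: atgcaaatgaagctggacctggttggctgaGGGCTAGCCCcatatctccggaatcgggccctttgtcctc
Ckap2, chr8:22185983-22186052, minus strand: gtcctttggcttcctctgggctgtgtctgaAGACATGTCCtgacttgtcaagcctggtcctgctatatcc
Bax, chr7:45467060-45467129, minus strand: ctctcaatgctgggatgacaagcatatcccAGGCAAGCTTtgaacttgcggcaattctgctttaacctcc
Aen, chr7:78895907-78895976, plus strand: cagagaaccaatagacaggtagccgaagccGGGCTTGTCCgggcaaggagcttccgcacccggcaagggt
Sesn1, chr10:41887236-41887305, plus strand: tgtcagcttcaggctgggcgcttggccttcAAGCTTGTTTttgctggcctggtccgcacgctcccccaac

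The half-sites begin 73 and 51 bases before the start in Cdkn1a, 186 in Mdm2, 185 in Ccng1, 40 in Gadd45a, 203 in Ckap2, 201 in Bax, 121 in Aen and 173 in Sesn1. The members known as p53 targets were listed for that reason, so a share above that of all windows is a description and not an independent finding. Of the other motifs looked for on both strands, CCAAT was in 51.5% of the member windows against 37.4% of all windows, GGGCGG in 63.6% against 35.7% and TATAAA in 6.06% against 13.6%. A match in the window is no evidence of binding.

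No shift shared by the p53 pathway genes was detected in esiOgt cells. At an adjusted p of 0.05 limma called 0 of the 31 members, against 0% of all 34760 probe sets, and adjusted p-values of the members ran from 0.678 to 0.999. Log2 changes lay between -0.37 for Aen and 0.40 for Sesn1, and 17 members stood higher and 14 lower in esiOgt cells. The median log2 change was 0.06, against 0.0048 over all gene symbols. The member median was -0.03 without esiGFP replicate 1 and -0.01 without esiOgt replicate 2, and 14 of the 31 members changed sign when some array was left out. The median size of a change, regardless of sign, was 0.12 for the members and 0.13 for all gene symbols.

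At the looser mark of an unadjusted limma p under 0.05 the members gave 0 higher and 0 lower, where 3.4% of gene symbols stood higher and 2.66% lower. Without esiOgt replicate 1 the count was 2, Aen and Sesn1, or 6.45% of the members beside 6.21% of gene symbols in the same fit. A 1.5-fold difference was reached by 0 members and by 2.6% of gene symbols. Both esiOgt arrays lay above both esiGFP arrays for 6 members, against 20% of gene symbols, and below them for 7 members, against 19.4%. Together these are 13 of 31 members (41.9%), beside 39.5% of gene symbols, so the share of members whose groups were apart was near the background.

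**Figure D1:**
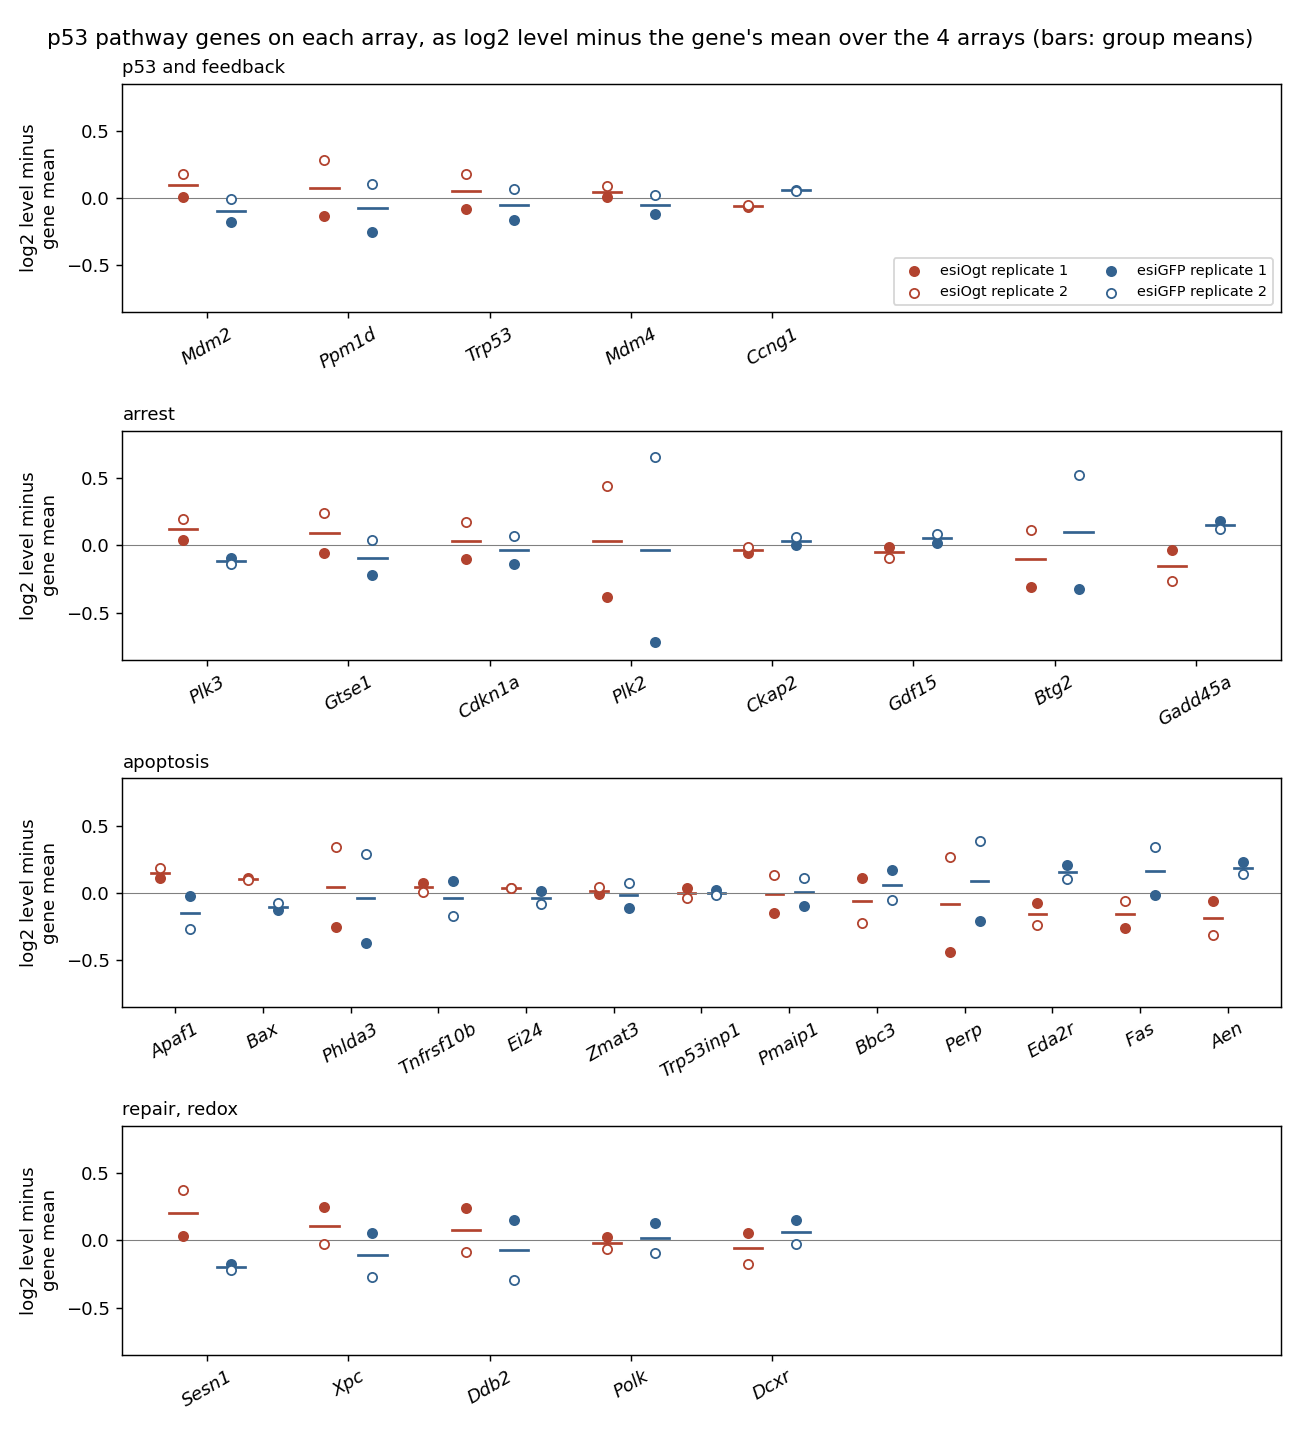
Log2 level of each p53 pathway gene on each of the 4 arrays, drawn as the difference from that gene's mean, in panels by role. Red points are esiOgt and blue points esiGFP, filled for replicate 1 and open for replicate 2, and bars are group means. For 20 of the 31 genes, Plk2, Btg2, Perp and Phlda3 among them, the larger gap between replicates exceeds the gap between groups.

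Trp53 and its feedback regulators stood within 1.14-fold of the esiGFP level, and none passed the test. Trp53 read 12.30 and 12.56 in esiOgt cells and 12.21 and 12.44 in esiGFP cells. The 2 groups overlapped, with a log2 change of 0.10 (SE 0.16, 95% interval -0.34 to 0.54). Mdm2, which encodes the ubiquitin ligase that marks p53 for degradation and is itself a p53 target, read 10.73 and 10.90 in esiOgt cells and 10.54 and 10.71 in esiGFP cells. Both esiOgt arrays lay above both esiGFP arrays by a narrow margin, with a log2 change of 0.19 (SE 0.14).

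Mdm4, whose product binds p53 and blocks its activation domain, read 10.02 and 10.09 in esiOgt cells and 9.88 and 10.03 in esiGFP cells, with overlap. Ppm1d encodes a phosphatase that turns off p53 and its upstream kinases. It read 9.81 and 10.23 in esiOgt cells and 9.69 and 10.05 in esiGFP cells, a log2 change of 0.15 (SE 0.22), and its second probe set gave 0.04 (SE 0.16). Ccng1, the gene of cyclin G, which guides a phosphatase to Mdm2, was the one gene of these 5 with a lower mean. It read 11.64 and 11.66 in esiOgt cells and 11.77 and 11.76 in esiGFP cells, with the groups apart and a log2 change of -0.11 (SE 0.11). The signs of Trp53 and Ppm1d turned without esiGFP replicate 1 (log2 changes of -0.02 and -0.03) and without esiOgt replicate 2 (-0.03 and -0.06).

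The arrest genes were split evenly, with 4 above and 4 below the esiGFP level and a median log2 change of -0.0025. Cdkn1a, which encodes the cyclin-dependent kinase inhibitor p21 and is the usual readout of p53 activity, read 10.05 and 10.33 in esiOgt cells and 10.02 and 10.22 in esiGFP cells. The groups overlapped, and the 95% interval of its log2 change of 0.07 ran from -0.37 to 0.50. Its sign turned without esiGFP replicate 1 (-0.03) and without esiOgt replicate 2 (-0.07). Gadd45a, a stress gene of growth arrest, read 8.42 and 8.19 in esiOgt cells and 8.63 and 8.57 in esiGFP cells. Both esiOgt arrays lay below, with a log2 change of -0.30 (SE 0.14, limma adjusted p = 0.686), the largest change of the arrest genes.

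Plk3, a polo-like kinase gene of the stress response, read 10.52 and 10.67 in esiOgt cells and 10.38 and 10.33 in esiGFP cells, with the groups apart and a log2 change of 0.24 (SE 0.13). Its relative Plk2 had the widest spread of all members, with 6.57 and 7.40 in esiOgt cells and 6.24 and 7.61 in esiGFP cells. The difference between the Plk2 arrays of one group was far larger than the log2 change of 0.06 (SE 0.55), and the sign turned without esiGFP replicate 1 (-0.63) and without esiOgt replicate 2 (-0.35). Btg2, an antiproliferative gene, read 8.07 and 8.49 in esiOgt cells and 8.05 and 8.90 in esiGFP cells, a log2 change of -0.19 (SE 0.34). It turned to 0.23 without esiGFP replicate 2 and to 0.02 without esiOgt replicate 1.

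Gtse1, whose product moves p53 out of the nucleus in G2 phase, read 10.72 and 11.01 in esiOgt cells and 10.56 and 10.81 in esiGFP cells, with overlap and a log2 change of 0.18 (SE 0.17). Ckap2, a gene of the mitotic spindle, and Gdf15, a secreted stress cytokine gene, were both lower by a narrow margin. Ckap2 read 9.86 and 9.91 in esiOgt cells and 9.92 and 9.98 in esiGFP cells. Gdf15 read 6.62 and 6.54 in esiOgt cells and 6.65 and 6.72 in esiGFP cells. Their log2 changes were -0.07 (SE 0.12) and -0.10 (SE 0.12).

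Of the 13 apoptosis genes, 6 stood higher, 7 stood lower and none passed, and their median log2 change was -0.0036. The genes of the mitochondrial route did not share a direction. Bax, which encodes the pore-forming protein of the outer membrane, read 9.90 and 9.89 in esiOgt cells and 9.66 and 9.72 in esiGFP cells, with the groups apart and a log2 change of 0.21 (SE 0.12). Apaf1, the scaffold gene of the apoptosome, read 9.72 and 9.79 in esiOgt cells and 9.58 and 9.34 in esiGFP cells, also apart, with a log2 change of 0.29 (SE 0.14). Bbc3 and Pmaip1 encode Puma and Noxa, which release Bax from its inhibitors and are among the most direct p53 targets. Bbc3 read 7.85 and 7.51 in esiOgt cells and 7.91 and 7.69 in esiGFP cells, and Pmaip1 7.01 and 7.29 in esiOgt cells and 7.07 and 7.27 in esiGFP cells. Both overlapped, with log2 changes of -0.11 (SE 0.18) and -0.02 (SE 0.16).

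The death receptor genes followed no common direction with all 4 arrays. Fas read 3.62 and 3.82 in esiOgt cells and 3.86 and 4.22 in esiGFP cells, with the groups apart and a log2 change of -0.32 (SE 0.18). The mean of Fas over the 4 arrays, 3.88, lay far below the array medians of 6.40 to 6.46, so its change rests on a low signal. Fas is the member that a filter at the median probe set level removes. Eda2r, a receptor gene of the same superfamily, read 8.57 and 8.40 in esiOgt cells and 8.85 and 8.75 in esiGFP cells. Both esiOgt arrays were below, with a log2 change of -0.31 (SE 0.13, limma adjusted p = 0.686). Tnfrsf10b, the receptor gene for the ligand TRAIL, read 9.97 and 9.90 in esiOgt cells and 9.99 and 9.73 in esiGFP cells, which overlap. Its log2 change was 0.08 (SE 0.15), and without esiGFP replicate 2 it was -0.05. It stayed positive without esiGFP replicate 1 (0.21), without esiOgt replicate 1 (0.05) and without esiOgt replicate 2 (0.11).

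Aen, a nuclease gene induced by p53, had the lowest log2 change of all members at -0.37 (SE 0.15, limma adjusted p = 0.678). It read 8.28 and 8.03 in esiOgt cells and 8.58 and 8.49 in esiGFP cells, so the groups were apart. The 95% interval of the change ran from -0.76 to 0.02. Perp, a membrane protein gene of cell contacts and apoptosis, read 7.06 and 7.76 in esiOgt cells and 7.29 and 7.88 in esiGFP cells, and Phlda3, an inhibitor gene of Akt, 8.62 and 9.22 in esiOgt cells and 8.51 and 9.16 in esiGFP cells. For both genes the replicates of a group were farther apart than the groups, and their log2 changes were -0.17 (SE 0.33) and 0.08 (SE 0.32).

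Ei24, a gene of the endoplasmic reticulum membrane and of autophagy, read 11.20 and 11.20 in esiOgt cells and 11.18 and 11.08 in esiGFP cells and was narrowly apart, with a log2 change of 0.07 (SE 0.12). Trp53inp1, whose product promotes p53 modification, read 10.92 and 10.84 in esiOgt cells and 10.90 and 10.86 in esiGFP cells. Zmat3, an RNA-binding zinc finger gene, read 8.68 and 8.74 in esiOgt cells and 8.58 and 8.77 in esiGFP cells. The last 2 overlapped, with log2 changes of -0.0036 (SE 0.12) and 0.03 (SE 0.13).

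**Figure D2:**
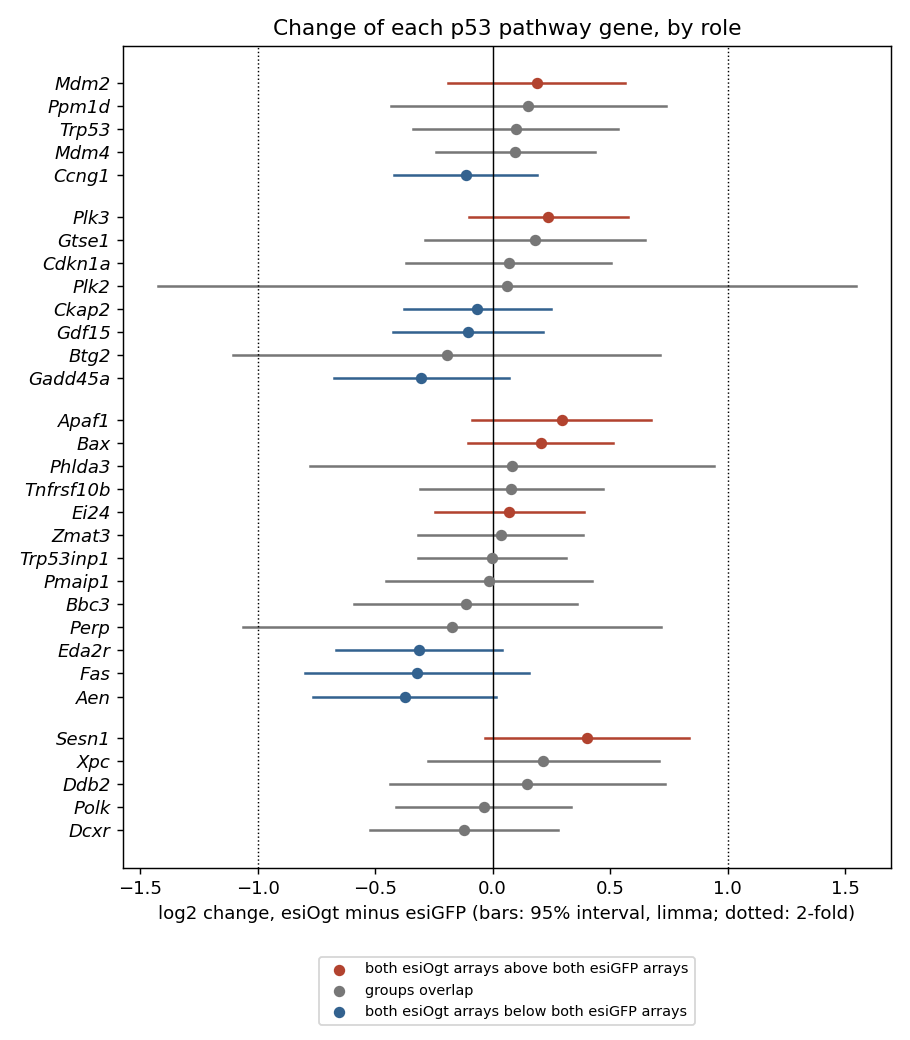
Log2 change (esiOgt minus esiGFP) of the 31 p53 pathway genes by role, with limma's 95% interval as bars; dotted lines mark a 2-fold change. Every interval crosses 0, and those of 28 genes stay within 2-fold, with Plk2, Btg2 and Perp as the others.

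Among the repair and redox genes 3 of the 5 measured stood higher, 2 stood lower and none passed, and their median log2 change was 0.15. Sesn1, a sestrin gene that curbs oxidative stress and growth signalling, had the highest log2 change of all members at 0.40 (SE 0.16, limma adjusted p = 0.683), 1.32-fold higher. It read 8.53 and 8.86 in esiOgt cells and 8.32 and 8.27 in esiGFP cells, with the groups apart. Without esiOgt replicate 2 its log2 change was 0.23, and without esiOgt replicate 1 it was 0.57.

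Ddb2 and Xpc, whose products find damaged bases for nucleotide excision repair, had positive changes with all 4 arrays, and their groups overlapped. Ddb2 read 8.48 and 8.16 in esiOgt cells and 8.40 and 7.95 in esiGFP cells, a log2 change of 0.15 (SE 0.22). Xpc read 8.47 and 8.19 in esiOgt cells and 8.28 and 7.95 in esiGFP cells, a log2 change of 0.22 (SE 0.18). Ddb2 turned to -0.07 without esiGFP replicate 2 and to -0.01 without esiOgt replicate 1, and the lowest value of Xpc with 1 array left out was 0.05. Polk, the gene of a polymerase that copies past damage, read 8.59 and 8.50 in esiOgt cells and 8.69 and 8.47 in esiGFP cells. Dcxr, a carbonyl reductase gene and no repair gene in the strict sense, read 8.20 and 7.97 in esiOgt cells and 8.29 and 8.12 in esiGFP cells. These 2 overlapped as well, at -0.04 (SE 0.14) and -0.12 (SE 0.15).

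The intervals give the size of change that the reported fit could have missed among these 4 arrays, not among separate cultures. That fit has no replicate term, so gaps between replicates that both groups share widen the intervals. For 28 of the 31 members the 95% interval lay within 2-fold in both directions, as it did for 91.1% of gene symbols. The exceptions were Plk2 (-1.42 to 1.55), Btg2 (-1.10 to 0.71) and Perp (-1.06 to 0.72). The interval lay within 1.5-fold for 16 of the 31 members and for 11575 of the 20723 gene symbols. A p that misses the threshold does not show that these genes were equal in the 2 groups.

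The members also differed between replicates of one group. In 24 of the 31 members (77.4%) the arrays of replicate 2 differed from those of replicate 1 in the same direction in both groups, against 68.2% of all gene symbols. For Plk2 the gap, replicate 2 minus replicate 1, was 0.83 in esiOgt cells and 1.37 in esiGFP cells. It was 0.42 in esiOgt cells and 0.84 in esiGFP cells for Btg2, and 0.71 in esiOgt cells and 0.59 in esiGFP cells for Perp. For Phlda3 it was 0.60 in esiOgt cells and 0.66 in esiGFP cells. Ddb2 and Xpc went the other way, with -0.32 in esiOgt cells and -0.44 in esiGFP cells for Ddb2, and -0.27 in esiOgt cells and -0.33 in esiGFP cells for Xpc. Across the 31 genes, which share the same 4 arrays, Pearson's r between the gaps was 0.87, and 0.68 across all gene symbols. For 20 members (64.5%) the larger of the 2 gaps exceeded the log2 change between the groups, against 71.4% of gene symbols.

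**Figure D3:**
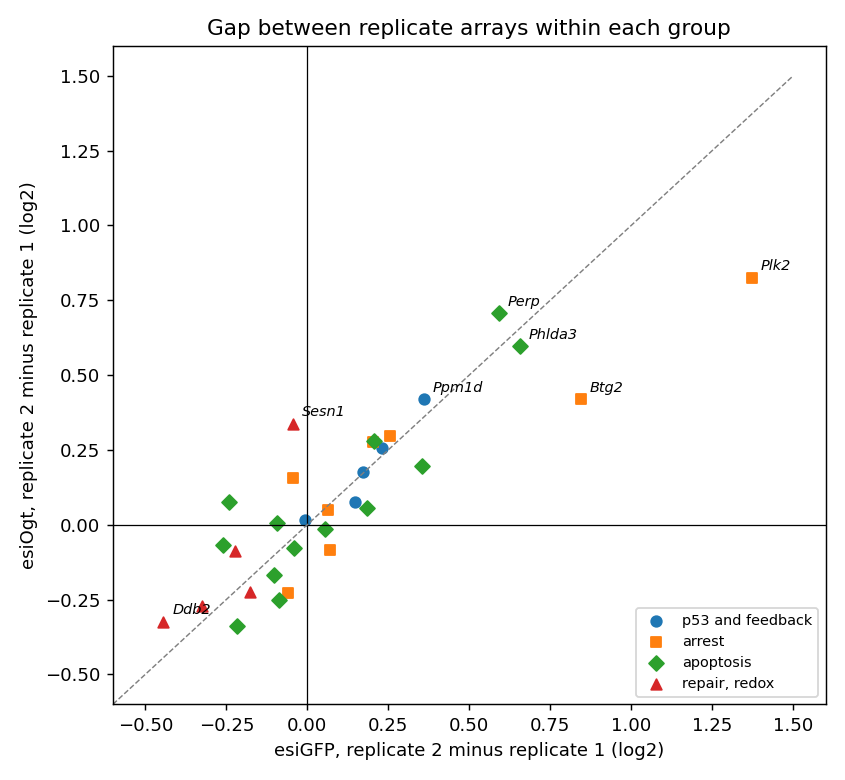
Log2 difference between replicate 2 and replicate 1 in esiOgt cells (vertical) against the same difference in esiGFP cells (horizontal) for the 31 members, with marker shapes by role and a dashed line of equal values. Plk2, Btg2, Perp and Phlda3 lie far up and to the right, and Ddb2 lies low in both groups.

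Other genes of the pathway were listed in 2 further sets, with 50 of 51 found in the table. None passed an adjusted p of 0.05, and 25 stood higher and 25 lower in esiOgt cells. Of the 21 upstream regulators 13 stood higher and 8 lower in esiOgt cells, and their median log2 change was 0.11. Chek1, the checkpoint kinase gene of replication stress, read 11.61 and 11.65 in esiOgt cells and 11.20 and 11.12 in esiGFP cells. It was the one gene of the 50 with an unadjusted limma p under 0.05, a mark that 6.06% of all gene symbols passed. Its log2 change was 0.47 (SE 0.12, limma adjusted p = 0.674). The number of the 50 genes under that mark changed when 1 array was left out, as described at the end beside the gene symbols.

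The next 3 regulators by p were Trp53bp2, Pml and Cdkn2a, each with both esiOgt arrays above both esiGFP arrays. Genes picked by p tend to have groups that do not overlap. Of the 21 regulators, 7 had both esiOgt arrays above and 1 had both below, against 20% and 19.4% of gene symbols. Together these are 38.1% of the regulators, beside 39.5% of gene symbols. Only this total was near the background, since the share above was larger and the share below smaller than among gene symbols. This skew was not tested. Trp53bp2, whose product steers p53 towards apoptosis genes, had a log2 change of 0.24 (SE 0.12). Pml, the gene of the nuclear bodies in which p53 is modified, had 0.24 (SE 0.12), and Cdkn2a had 0.27 (SE 0.17). Arf, an alternative product of Cdkn2a that inhibits Mdm2, was not read separately. Of 29 further targets 12 stood higher and 17 lower in esiOgt cells, and 0 had an unadjusted limma p under 0.05. Their median log2 change was -0.02. The 4 with the smallest p were Ephx1, an epoxide hydrolase gene, at -0.40 (SE 0.22), Tnfaip8 at -0.53 (SE 0.30), Siva1, a pro-apoptotic gene, at -0.27 (SE 0.16), and Sesn2, a relative of Sesn1, at 0.26 (SE 0.16).

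**Figure D4:**
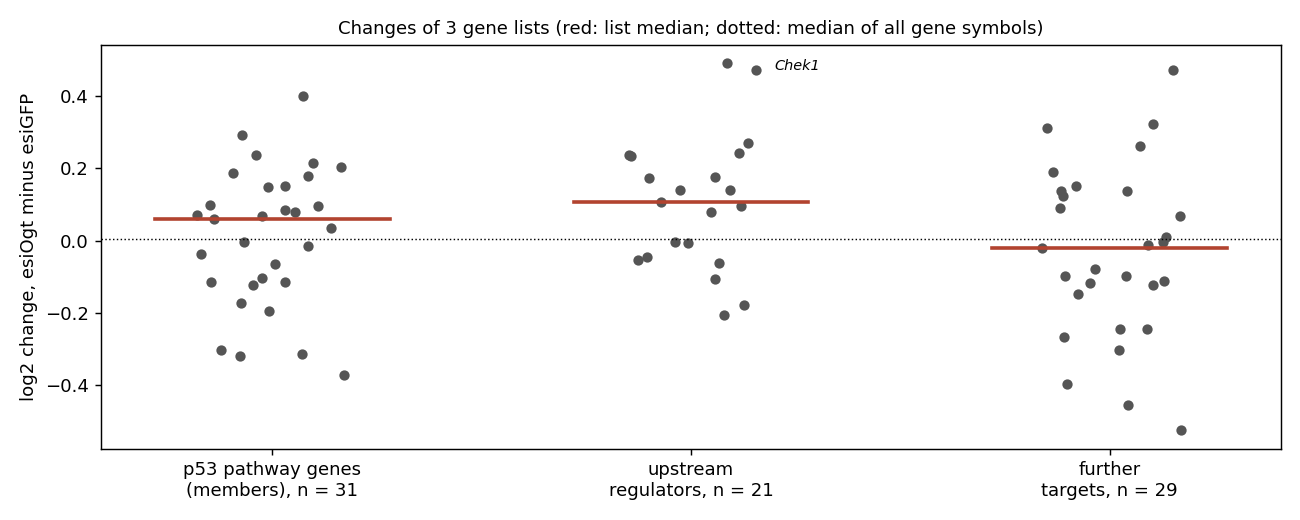
Log2 change (esiOgt minus esiGFP) of each gene in the 31 p53 pathway members, 21 upstream regulators and 29 further targets, with the list median in red and the median of all gene symbols dotted. The list medians are 0.06, 0.11 and -0.02, and the points of all 3 lists lie on both sides of 0.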

How the data were processed

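The 4 one-colour arrays were 2 of esiOgt and 2 of esiGFP cells. Per the labels' protocols, 150 ng of total RNA gave biotin-labelled cDNA. The deposited values are log2 levels per probe set, made with RMA per the submitters' processing notes. The p-value and log2 fold change columns of the authors' deposited table came from limma, per the same notes. For array type, genome build and scan batches: not given in the sources used here.

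Both deposited tables hold identical values. All 34760 probe sets were fitted with lmFit and eBayes (limma 3.58.1, R 4.3.3), with a single term for group, and p-values were adjusted over all probe sets by Benjamini-Hochberg. The fit has 2 residual degrees of freedom, 4.38 after moderation, and matched the authors' p-values to within 4.84e-08. It was tested on simulated data with independent noise per array and planted changes larger than that of any member. The test therefore does not cover changes of the members' size. Genes were summarised by the probe set with the highest mean. Of the probe sets, 11414 name no symbol. Precision is limited by having 4 arrays.

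The members and lists were chosen with earlier results of these data known. Every member found is named, as are the 4 genes with the smallest p of each further list. Alternatives were median centring, quantile normalization, a level filter, named probe sets alone, a variance trend, a robust prior, a replicate block, the mean of probe sets, p under 0.01 and leaving out each array. Promoter windows are RefSeq's, GRCm38.p6.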

Additional observations from a re-analysis of the deposited data

How the results depend on the processing

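No member passed an adjusted p of 0.05 in limma under any alternative that kept every array. Ogt, the silenced gene, did not pass in those fits either. Its limma adjusted p ran from 0.307 with a replicate block to 0.711 with median centring. The absence of passing members therefore says little about whether the members changed. The count of members at an unadjusted p under 0.05, 0 in the reported fit, was 1 after quantile normalization (Aen, 3.23% of members beside 5.95% of gene symbols). It was 2 when only probe sets naming 1 gene were fitted (6.45% beside 7.96%) and 2 with the mean of probe sets (6.45% beside 7.9%), Aen and Sesn1 in both, and 0 to 2 when 1 array was left out. The replicate numbers are not said to pair the samples. With the replicate number as a block the count was 3 (Aen, Eda2r and Fas, lowest limma adjusted p = 0.313), or 9.68% of members beside 13.4% of gene symbols. There were 2782 gene symbols in place of 1256 and 5 other pathway genes in place of 1. Over all 34760 probe sets, deviations from the group means correlated at 0.479 between arrays of the same number. With 2 arrays per group this compares the same replicate gaps as the r of 0.68 across gene symbols. At an unadjusted p under 0.01 there were 212 gene symbols and 0 other pathway genes. Without 1 array the gene symbols numbered 373 to 1286 and the other pathway genes 0 to 7, in fits with fewer samples. The member median ranged from -0.028 to 0.087 without 1 array, where the replicates' own SD of that median was 0.05. Ogt stayed between -1.72 and -1.36.

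Leaving out 1 array puts that group's other array in place of its mean, so the gap between replicates moves the log2 change. What caused these gaps was not tested. Of the 31 members, 17 kept their sign under every alternative run and 14 turned when some array was left out. Their log2 changes then ranged from -0.030 to 0.23 for Trp53, -0.058 to 0.36 for Ppm1d, -0.070 to 0.21 for Cdkn1a, -0.62 to 0.23 for Btg2, -0.63 to 0.75 for Plk2, -0.28 to 0.054 for Bbc3, -0.16 to 0.12 for Pmaip1, -0.049 to 0.21 for Tnfrsf10b, -0.53 to 0.18 for Perp, -0.043 to 0.036 for Trp53inp1, -0.058 to 0.13 for Zmat3, -0.24 to 0.41 for Phlda3, -0.074 to 0.37 for Ddb2 and -0.15 to 0.073 for Polk. Trp53inp1 also turned with median centring (0.0029). The single remaining array of a group is taken to vary like the others in these fits.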
